A study of Mus musculus with 8 samples.

Results

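Aminoacyl-tRNA synthetases are the enzymes that load each tRNA with its amino acid. The genes described here are the 36 mouse synthetase genes found by symbol among the 26586 genes of the count table, of which 18 serve the cytosol, 16 serve the mitochondrion and 2, Gars and Kars, serve both. Symbols ending in 2 were taken as mitochondrial, every one of the 36 symbols was present, and all 36 were among the 13873 genes that passed the filter on low counts and were tested. RNA-Seq had been performed on ovarian primordial follicles, the resting follicles in which an oocyte is surrounded by flat pregranulosa cells, from mice of strain background C57Bl/6 x CBA on postnatal day 3. The 4 mito-supplemented samples came from the third generation of a lineage whose founder oocytes had received, together with the sperm at intracytoplasmic injection, mitochondria isolated from egg precursor cells of the same strain. The authors name the 4 other samples only as controls, and describe control females as mated with proven stud males. No injected lineage without added mitochondria is labelled among the samples. The superovulation, injection, embryo culture, vitrification and transfer, the added mitochondria and the descent of the lineage therefore cannot be told apart in this comparison. The question was which transcripts differed between the descendants and the controls.

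The total counts of control samples 1 to 4 were 17658559, 13917412, 18219362 and 10370045, and those of mito-supplemented samples 1 to 4 were 19760763, 13370911, 16116434 and 13276462. The sample codes shared their first part within 2 pairs of controls and within 3 of the mito-supplemented samples, which may mark a shared source. No source used here states how these codes relate to litters or dams, so p-values measure only the spread between these samples. Values in CPM, counts divided by library size, below were scaled by edgeR's TMM factors, and levels were compared between genes only per kilobase of exon.

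Each synthetase recognises its amino acid and the matching tRNAs and joins them in a reaction driven by ATP, and the charged tRNAs are then carried to the ribosome by elongation factors. Cytosolic and mitochondrial translation use separate sets of enzymes, nearly all of them encoded in the nucleus by different genes, and several cytosolic synthetases are held together with scaffold proteins in the multisynthetase complex. Cytosolic synthetase genes are known targets of the amino acid response through Atf4, and inherited defects in mitochondrial synthetases such as Lars2, Hars2 and Aars2 are known for ovarian failure.

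Short promoter windows are shown because the members that held each of 2 searched motifs were split by compartment. RefSeq promoters on build GRCm38.p6, reaching from 250 bases before to 50 bases after the start of transcription, were matched for 27 of the 36 members. Cars, Hars, Lars, Nars, Rars, Vars, Wars, Hars2 and Pars2 had no matched entry. The letters TGATGNAA, the core of the element bound by C/EBP and ATF proteins, were searched on both strands and were present for 4 of 11 cytosolic members, for 1 of the 2 members of both compartments and for 0 of 14 mitochondrial members, against 4.51% of all genes and 3.97% of all promoters in the table. Capitals mark the motif or its reverse complement.
Yars: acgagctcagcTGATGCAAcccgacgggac
Gars: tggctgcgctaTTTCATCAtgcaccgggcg
Aars: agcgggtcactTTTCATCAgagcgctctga
Iars: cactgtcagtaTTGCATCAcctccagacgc
Tars: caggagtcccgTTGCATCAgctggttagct
These windows lay at chr4:129189895-129189924 on the plus strand (Yars), chr6:55037960-55037989 on the plus strand (Gars), chr8:111033840-111033869 on the plus strand (Aars), chr13:49682126-49682155 on the plus strand (Iars) and chr15:11399655-11399684 on the minus strand (Tars). Only the Yars window held the letters as written, the others held the reverse complement, and all but the Gars window touched an annotated exon.

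The second motif, GCGCATGC, the core of the site bound by nuclear respiratory factor 1, was present on either strand for 3 of 14 mitochondrial members and for 0 of the 13 other members matched, against 3.05% of all genes and 2.71% of all promoters. The 2 motifs share no position in the windows shown, and capitals again mark the motif or its reverse complement.
Wars2: ccagaggacagGCGCATGCgtagtaagcac
Rars2: cggccccgtgtGCATGCGCactccacactt
Vars2, first: gagtcttttacGCATGCGCctgcgtgtccc
Vars2, second: tccccgcccacGCATGCGCgcgcacctcgc
They lay at chr3:99141015-99141044 on the plus strand (Wars2), chr4:34614895-34614924 on the plus strand (Rars2), and chr17:35667620-35667649 and chr17:35667594-35667623 on the minus strand (Vars2). Wars2 held the letters as written and the others their reverse complement, and of these windows only that of Rars2 touched an annotated exon. Both motifs were chosen after the counts had been seen, and a match describes the letters in a window, not a bound site.

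Before the synthetases are compared, the make-up of the libraries is given, since the samples were isolates of a tissue with many cell types. Oocyte markers were counted in every library, but their sum differed widely, at 3699, 202, 181 and 662 CPM in control samples 1 to 4 and 309, 200.4, 785 and 125 CPM in mito-supplemented samples 1 to 4. All 13 oocyte markers tested, of 15 listed, had a lower mean in the mito-supplemented samples, with a median log2 fold change of -1.80, and 1 of them, Kit, passed an unadjusted p of 0.05. This direction rested on control sample 1: without it 5 were lower and 8 higher, with a median of 0.22. Nlrp5, a maternal effect gene and the most abundant of them, was at 1392, 41.5, 71.7 and 206 CPM in controls and at 68.9, 52.5, 245 and 18.4 CPM in mito-supplemented samples, so the groups overlapped. Pregranulosa markers, led by Wt1, summed to 305, 223, 333 and 906 CPM in the controls and to 514, 1155, 740.0 and 1369 CPM in the mito-supplemented samples, with 11 of 12 higher in the latter (9 to 11 as each library was left out) and 2 past that p.

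Markers of other ovarian cells were present as well. Surface epithelium markers, led by Aldh1a1, summed to 257, 196, 195 and 715 CPM in control samples 1 to 4 and to 669, 1416, 787 and 925 CPM in mito-supplemented samples 1 to 4, with 10 of 10 higher in the latter and 5 of them past an unadjusted p of 0.05. Stroma markers, led by Col3a1, summed to 336, 448, 649 and 2199 CPM and to 949, 978, 2480.3 and 2182 CPM in the same order, with 8 of 8 higher (6 without mito-supplemented sample 4) and 0 past that p. Endothelial markers, led by Kdr, summed to 25.7, 28.1, 44.9 and 216 CPM and to 96.3, 226, 182 and 201 CPM, with 5 of 7 tested higher (4 to 7 as each library was left out) and 1 past it. Smooth muscle markers, led by Myl9, were higher in 6 of 6 (40.2, 45.4, 76.9 and 303 CPM against 74.8, 114, 128 and 485 CPM), with 0 past it and 3 of 6 higher without mito-supplemented sample 4. Immune markers, led by Lyz2, summed to 10.9, 137, 119 and 22.9 CPM and to 744, 12.3, 16.7 and 8.55 CPM, highest in control samples 2 and 3 and mito-supplemented sample 1, with C1qb at 0 in all libraries. Of these 5 of 5 tested were higher and 0 past it, but without mito-supplemented sample 1 only 2 were higher and the median turned from 0.54 to -2.44.

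Red cell markers set the same 3 libraries apart. Their sum was 5054 CPM in control sample 2, 3466 CPM in control sample 3 and 5463 CPM in mito-supplemented sample 1, against 15.1 and 47.0 CPM in control samples 1 and 4 and 87.0, 22.9 and 22.4 CPM in mito-supplemented samples 2 to 4. Slc4a1, the anion exchanger of the red cell membrane, was the most abundant of the 6 of 8 markers found, and 4 of 4 tested had a lower mean in the mito-supplemented samples with 0 past an unadjusted p of 0.05, a direction that 1 of 4 kept without control sample 2. The haemoglobin chains found were near the floor and were not tested. Hba-a1 was at 0.243 CPM in mito-supplemented sample 1 and at 0 in all other libraries. Hba-a2 was at 8.40 CPM in control sample 2 and at 0 to 0.277 CPM in the others. These marker levels moved across the same libraries as several of the values below, and their part in the results was not tested.

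Between the groups, 0 of the 36 synthetases were called (adjusted p under 0.05 and a fold change of at least 2), and the same was true of all genes tested (0.0% by edgeR's quasi-likelihood test). The lowest adjusted p of any gene was 0.418. Even at an unadjusted p under 0.05 the synthetases numbered 0 lower and 0 higher in the mito-supplemented samples, against 2.4% and 5.31% of all genes. The likelihood ratio test called 0.418% of all genes (58) and DESeq2 called 1.02% (141), and 0 of these genes were synthetases by either tool. Fewer cells of a type and less RNA per cell cannot be told apart in these bulk samples.

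The direction was mostly downward without passing a test. Of the 36 members, 29 had a log2 fold change below 0 (16 of 18 cytosolic, both shared enzymes and 11 of 16 mitochondrial), against 55.1% of all genes, but with library sizes as the sole scaling the number was 22, against 41.5% of all genes. That scaling moved the median over all genes from -0.10 to 0.17, so the members were also read against that median. Relative to it, 26 members lay lower (14 cytosolic, 2 of both compartments and 10 mitochondrial), against 50.0% of all genes, and 28 with library sizes alone. The median log2 fold change was -0.44 for the cytosolic and -0.28 for the mitochondrial enzymes, which is -0.34 and -0.19 relative to all genes, and with library sizes alone the relative values were -0.28 and -0.19. Over the 18 alternatives to the main test, 16 of the 36 members kept the direction of their log2 fold change in all, 1 (Mars2) kept it in the 17 in which it was tested, and 19 turned in at least 1. With only the 5 libraries under 1000 CPM of red cell markers, a choice made after seeing the data, 35 members passed the filter, 24 lay below 0 (68.6%, against 50.3% of all genes), and the medians were -0.24 and -0.24.

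The positions of single samples also depended on the scaling, since the TMM factor of control sample 4 was 0.489 and those of the other libraries were 0.909 to 1.39. The mitochondrial rRNAs Rnr1 and Rnr2 took 74.0% of the counts of control sample 4 and 14.9 to 44.3% in the other libraries. Library sizes include these counts, so that scaling depends on the rRNA share of each library. On library sizes alone control sample 4 had lower values relative to the rest. There 0 of the 36 members had groups that did not overlap, against 0.202% of all genes lower and 6.62% higher. The positions given below are on the TMM scale unless stated.

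**Figure D1:**
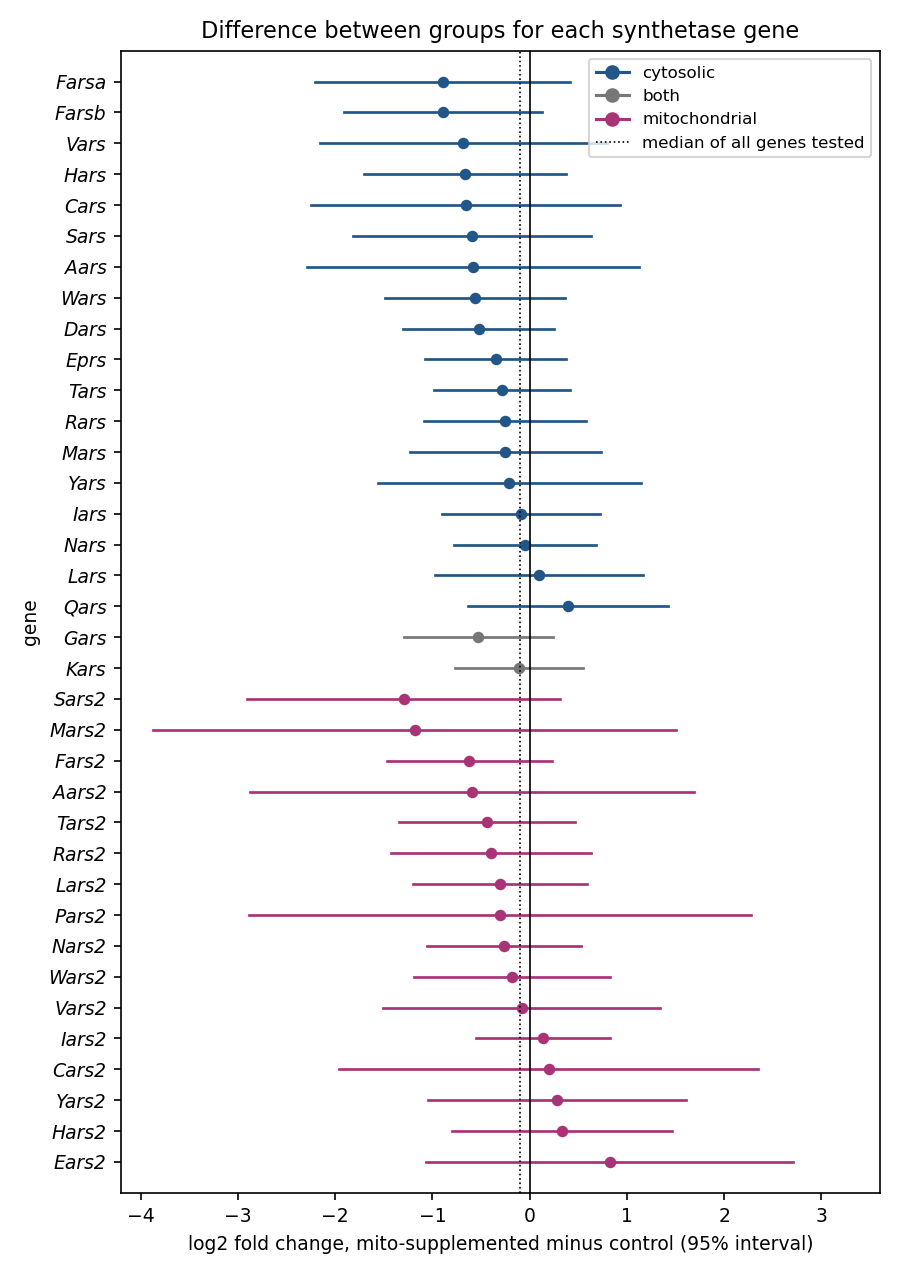
Log2 fold change (mito-supplemented over control, 4 samples each) of the 36 synthetases with 95% intervals, grouped by compartment, and the median of all genes tested as a dotted line. Most points lie left of 0, with 29 below it (22 with library sizes alone as scaling), and every interval includes 0.

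The multisynthetase complex holds 8 of the enzymes, Dars, Eprs, Iars, Kars, Lars, Mars, Qars and Rars. Of these, 6 had a log2 fold change below 0, with a median of -0.18 that turned to 0.04 with library sizes alone (-0.08 and -0.14 relative to all genes), and from 4 to 7 were below 0 as each library was left out. The 12 enzymes of the cytosol or of both compartments that lie outside the complex were all below 0 in the main test, with a median of -0.59, and 10 of them were below 0 with library sizes alone (median -0.34) and 9 without control sample 2 (median -0.29), while without mito-supplemented sample 1 the median was -1.03 with all 12 below 0. No test of the difference between these groups was made.

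Dars, which charges tRNA with aspartate (chr1:128363707-128417368, minus strand), was at 48.0, 44.8, 48.8 and 57.4 CPM in control samples 1 to 4 and at 52.0, 29.6, 34.1 and 22.8 CPM in mito-supplemented samples 1 to 4. Mito-supplemented samples 2, 3 and 4 lay below every control, while sample 1 lay among the controls, so the groups overlapped. On library sizes alone sample 4 was the 1 sample below every control. Mean Dars was 49.7 ± 5.41 CPM against 34.6 ± 12.5 CPM (control first, SD, n = 4 each). The log2 fold change was -0.52 (SE 0.35, 95% interval -1.30 to 0.25), with an edgeR adjusted p of 0.713, and it ran over all alternatives from -0.85, with only the 5 libraries low in red cell markers, to -0.21, with library sizes alone.

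Iars, the isoleucine enzyme of the complex (chr13:49682100-49734267, plus strand), had the highest level per kilobase of all cytosolic members on the union of exons. It was at 237, 229.9, 170.1 and 175 CPM in control samples 1 to 4 and at 237, 122, 119.5 and 284 CPM in mito-supplemented samples 1 to 4. The mito-supplemented values lay on both sides of the controls, with samples 2 and 3 below and sample 4 above all of them, and within the range of the controls on library sizes alone. Mean Iars was 203 ± 35.1 CPM against 191 ± 82.8 CPM (SD, n = 4 each). The log2 fold change of -0.09 (SE 0.36, edgeR adjusted p = 0.945) ranged down to -0.32 without mito-supplemented sample 4, and turned to 0.12 with library sizes alone and to 0.011, 0.075 and 0.11 without control sample 1, mito-supplemented sample 2 and mito-supplemented sample 3.

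Of the other enzymes of the complex, Eprs charges tRNA with both glutamate and proline. It was at 434, 302, 256 and 313 CPM in the controls and at 369, 209.8, 249 and 195 CPM in the mito-supplemented samples, where samples 2, 3 and 4 lay below every control (0 samples on library sizes alone). Its log2 fold change was -0.35 (SE 0.32, edgeR adjusted p = 0.776), or -0.13 with library sizes alone and -0.75 with only the 5 libraries low in red cell markers. Rars, the arginine enzyme, was at 120.5 CPM in control sample 1 and between 49.2 and 81.6 CPM in the other 7 libraries. Qars, the glutamine enzyme, stood at 72.0 CPM in mito-supplemented sample 4 and between 16.2 and 36.8 CPM elsewhere. The log2 fold changes of Lars, Mars, Qars and Rars, for leucine, methionine, glutamine and arginine, were 0.10, -0.25, 0.39 and -0.25. With library sizes alone they were 0.36, -0.04, 0.59 and -0.07. Over all alternatives Lars ran from -0.13 to 0.84, Mars from -0.70 to -0.04, Qars from -0.10 to 0.89 and Rars from -0.52 to 0.12, so that only Mars kept its direction.

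Phenylalanine is charged in the cytosol by an enzyme built of 2 kinds of subunit, Farsa (alpha, catalytic; chr8:84856989-84869257, plus strand) and Farsb (beta; chr1:78417975-78488897, minus strand). Farsb was at 138, 55.1, 70.1 and 48.6 CPM in control samples 1 to 4 and at 60.6, 28.2, 54.7 and 25.2 CPM in mito-supplemented samples 1 to 4. Control sample 1 was the highest of the 8 libraries, mito-supplemented samples 2 and 4 lay below all controls (0 samples on library sizes alone), and the groups overlapped. Mean Farsb was 78.0 ± 41.1 CPM against 42.2 ± 18.04 CPM (SD, n = 4 each). Its log2 fold change of -0.89 (SE 0.46, 95% interval -1.90 to 0.13) had an edgeR adjusted p of 0.667 and ranged from -1.07 to -0.44 as each library was left out in turn, the last without control sample 1, and was -1.34 with only the 5 libraries low in red cell markers.

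Farsa was at 5.09, 14.7, 19.7 and 9.28 CPM in control samples 1 to 4 and at 11.1, 6.72, 4.63 and 3.75 CPM in mito-supplemented samples 1 to 4. Its highest values were in control samples 2 and 3, and mito-supplemented samples 3 and 4 lay below all controls (sample 4 alone on library sizes). Mean Farsa was 12.2 ± 6.38 CPM against 6.55 ± 3.28 CPM (SD, n = 4 each), with a log2 fold change of -0.89 (SE 0.59, edgeR adjusted p = 0.712), which was -0.58 with library sizes alone and ran from -1.26 to -0.49 over all alternatives. The subunits did not keep 1 ratio: Farsb exceeded Farsa per kilobase by 47.1, 6.51, 6.15 and 9.07 times in the controls and by 9.44, 7.27, 20.5 and 11.6 times in the mito-supplemented samples. Control sample 1 stood apart, with the highest Farsb and the lowest Farsa of the controls, and it also held the highest sum of oocyte markers, whose part in this ratio was not tested. A stretch of Farsb making up 9.47% of its exon bases overlaps Sgpp2 on the opposite strand, and since no strand setting is given for the counts, reads there cannot be assigned to either gene with certainty.

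Hars, the histidine enzyme (chr18:36766528-36783205, minus strand), was at 55.6, 116, 98.1 and 37.3 CPM in control samples 1 to 4 and at 79.7, 34.4, 28.5 and 51.1 CPM in mito-supplemented samples 1 to 4. Control samples 2 and 3 and mito-supplemented sample 1 were the highest, and the groups overlapped. Mean Hars was 76.8 ± 36.5 CPM against 48.4 ± 22.9 CPM (SD, n = 4 each), with a log2 fold change of -0.66 (SE 0.47, edgeR adjusted p = 0.722), and this ran from -0.99 without mito-supplemented sample 1 to -0.27 with only the 5 libraries low in red cell markers. Hars shares 195 exon bases with its mitochondrial counterpart Hars2, which is transcribed from the opposite strand, so the counts of both are uncertain there. Hars2 itself was between 5.34 and 20.9 CPM, with a log2 fold change of 0.33, which was 0.63 with library sizes alone and turned to -0.07 without mito-supplemented sample 4.

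The remaining cytosolic enzymes outside the complex were Aars, Cars, Nars, Sars, Tars, Vars, Wars and Yars. Aars, the alanine enzyme, was at 33.2, 158, 111 and 22.9 CPM in controls and at 135, 36.6, 30.6 and 15.3 CPM in mito-supplemented samples. Vars, for valine, was at 14.2, 93.3, 81.1 and 27.6 CPM in controls and at 70.3, 21.2, 15.7 and 27.7 CPM in mito-supplemented samples. Both were highest in control samples 2 and 3 and mito-supplemented sample 1. Log2 fold changes were -0.58 (Aars), -0.66 (Cars, cysteine), -0.05 (Nars, asparagine), -0.59 (Sars, serine), -0.28 (Tars, threonine), -0.68 (Vars), -0.56 (Wars, tryptophan) and -0.21 (Yars, tyrosine). With library sizes alone they were, in the same order, -0.36, -0.46, 0.16, -0.33, -0.05, -0.40, -0.08 and 0.13, so Nars and Yars turned. Over all alternatives Aars ran from -1.55 to -0.0093, Cars from -1.17 to 0.45, Nars from -0.17 to 0.16, Sars from -1.24 to -0.19, Tars from -0.52 to -0.05, Vars from -1.31 to 0.06, Wars from -0.77 to -0.08 and Yars from -0.54 to 0.86. The upper ends of Aars, Cars, Vars and Yars came with only the 5 libraries low in red cell markers. Wars was at 43.4 CPM in control sample 4 and between 15.02 and 21.6 CPM elsewhere. A part of Aars making up 14.3% of its exon bases is shared with Exosc6 on the same strand.

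**Figure D2:**
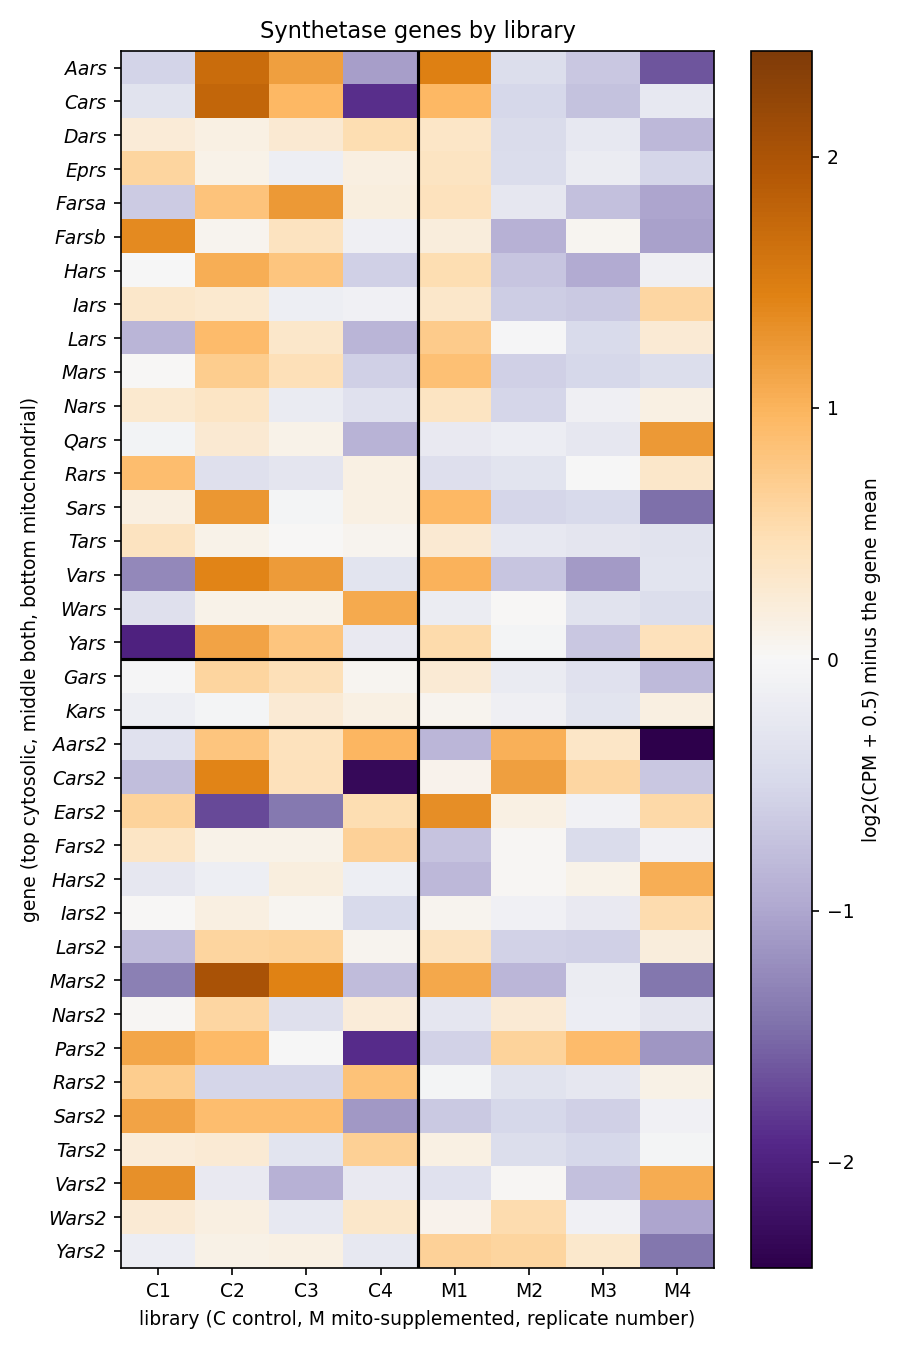
Heat map of the 36 synthetases (rows) in the 8 libraries (columns, C control and M mito-supplemented with the replicate number), coloured by log2 CPM minus the gene's mean. A block of cytosolic rows, Aars, Cars, Vars and Yars among them, is high in control samples 2 and 3 and in mito-supplemented sample 1.

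Gars and Kars each encode the cytosolic and the mitochondrial form of their enzyme. Gars, for glycine (chr6:55038007-55079500, plus strand), was at 48.3, 75.6, 68.6 and 51.3 CPM in control samples 1 to 4 and at 59.1, 43.1, 38.9 and 28.3 CPM in mito-supplemented samples 1 to 4. Mito-supplemented samples 2, 3 and 4 lay below every control and sample 1 among them, but on library sizes alone 0 samples lay below every control. Mean Gars was 61.0 ± 13.3 CPM against 42.3 ± 12.8 CPM (SD, n = 4 each), with a log2 fold change of -0.53 (SE 0.35, edgeR adjusted p = 0.712), -0.24 with library sizes alone and -0.71 without mito-supplemented sample 1.

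Kars, for lysine (chr8:111993443-112011323, minus strand), was at 45.8, 48.9, 60.7 and 55.7 CPM in control samples 1 to 4 and at 52.9, 46.5, 40.4 and 56.5 CPM in mito-supplemented samples 1 to 4. The groups overlapped, with mito-supplemented sample 3 below all controls (0 samples on library sizes alone). Mean Kars was 52.8 ± 6.71 CPM against 49.0 ± 7.11 CPM (SD, n = 4 each). The log2 fold change was -0.11 (95% interval -0.76 to 0.55, edgeR adjusted p = 0.920), and it turned to 0.20 with library sizes alone and to 0.0053 without mito-supplemented sample 3.

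Among the mitochondrial enzymes, Fars2, which charges mitochondrial tRNA with phenylalanine (chr13:36117412-36726280, plus strand), was the 1 member whose groups did not overlap on the TMM scale. Fars2 was at 21.9, 18.3, 18.2 and 26.8 CPM in control samples 1 to 4 and at 10.1, 17.2, 12.3 and 15.7 CPM in mito-supplemented samples 1 to 4. Every mito-supplemented value lay below every control, although the nearest values, 17.2 and 18.2 CPM, were close. On library sizes alone the groups overlapped, at 30.4, 16.6, 17.6 and 13.1 CPM in the controls and 10.6, 18.7, 16.9 and 17.1 CPM in the mito-supplemented samples. Groups that were separate in this direction made up 2.03% of all genes, and in the opposite direction, where 0 members were found, 3.0%. Mean Fars2 was 21.3 ± 4.06 CPM against 13.8 ± 3.22 CPM (SD, n = 4 each). The log2 fold change was -0.62 (SE 0.38, 95% interval -1.47 to 0.23, edgeR adjusted p = 0.697), or -0.30 with library sizes alone and -0.74 without mito-supplemented sample 2. Opposite-strand genes Nrn1 and Lyrm4 overlap 8.72% and 2.00% of its exon bases.

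Sars2, the mitochondrial serine enzyme (chr7:28741992-28753871, plus strand), was at 7.63, 6.34, 6.35 and 1.18 CPM in control samples 1 to 4 and at 1.84, 2.08, 1.95 and 2.92 CPM in mito-supplemented samples 1 to 4. Control sample 4, the shallowest library, had fewer than 10 Sars2 counts and the lowest value of all, and the other 3 controls lay above every mito-supplemented sample. Mean Sars2 was 5.38 ± 2.86 CPM against 2.20 ± 0.491 CPM (SD, n = 4 each). The log2 fold change was -1.30 (SE 0.72, 95% interval -2.91 to 0.32, edgeR adjusted p = 0.681), and it ran from -1.60 to -0.91 over all alternatives. Without control sample 4 the count of members past an unadjusted p of 0.05 went from 0 to 1, and that member was Sars2, while without mito-supplemented sample 1 it was also 1, the cytosolic Sars. In the same fits 12.6% and 14.1% of all genes passed that p, against 2.78% of the members.

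Tars2, for threonine (chr3:95739976-95760206, minus strand), was at 17.3, 17.8, 11.7 and 23.7 CPM in control samples 1 to 4 and at 16.3, 11.01, 10.3 and 14.3 CPM in mito-supplemented samples 1 to 4. Mito-supplemented samples 2 and 3 lay below all controls (0 samples on library sizes alone) and the groups overlapped. Mean Tars2 was 17.6 ± 4.89 CPM against 13.0 ± 2.82 CPM (SD, n = 4 each), with a log2 fold change of -0.44 (SE 0.41, edgeR adjusted p = 0.775), which was -0.11 with library sizes alone, -0.25 without control sample 4 and -0.77 with only the 5 libraries low in red cell markers.

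Mars2, for methionine (chr1:55237177-55248470, plus strand), had the lowest level per kilobase of all members. Its counts were 6, 90, 81 and 3 in control samples 1 to 4 and 74, 8, 26 and 3 in mito-supplemented samples 1 to 4, which is 0.246, 7.14, 4.63 and 0.592 CPM and 3.59, 0.554, 1.18 and 0.209 CPM. The high values were again in control samples 2 and 3 and mito-supplemented sample 1, and the other libraries held 3 to 26 counts. No difference between the groups was detected, and the parts of depth and of the spread between libraries in this were not tested. Mean Mars2 was 3.15 ± 3.32 CPM against 1.38 ± 1.53 CPM (SD, n = 4 each), with a log2 fold change of -1.18 (SE 1.21, edgeR adjusted p = 0.792), which was -0.41 without control sample 2 and -2.25 without mito-supplemented sample 1.

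**Figure D3:**
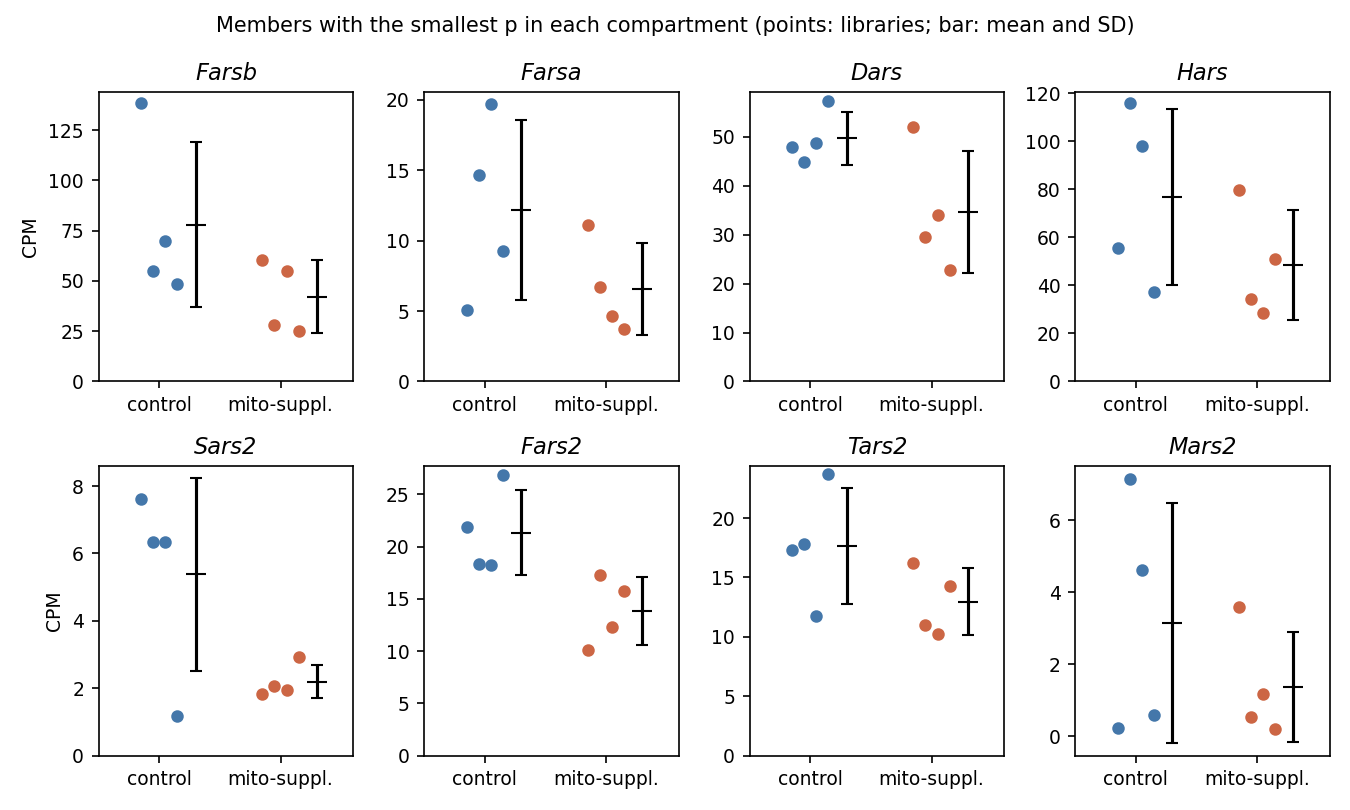
CPM in each of the 8 libraries (points) with group mean and SD (n = 4) for the 4 cytosolic and 4 mitochondrial members with the smallest unadjusted p. Groups overlap for Farsb, Farsa, Dars, Hars, Sars2, Tars2 and Mars2, and for Fars2 the highest mito-supplemented value, 17.2, lies just under the lowest control, 18.2, on this TMM scale and not on library sizes alone.

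The other mitochondrial enzymes had log2 fold changes on both sides of 0. They were -0.60 for Aars2 (alanine), 0.19 for Cars2 (cysteine), 0.82 for Ears2 (glutamate), 0.14 for Iars2 (isoleucine), -0.27 for Nars2 (asparagine), -0.30 for Pars2 (proline), -0.39 for Rars2 (arginine), -0.08 for Vars2 (valine), -0.18 for Wars2 (tryptophan) and 0.28 for Yars2 (tyrosine). With library sizes alone they were, in the same order, -0.11, 0.46, 1.03, 0.36, 0.05, -0.19, -0.09, -0.06, 0.12 and 0.56, so Nars2 and Wars2 turned. Over all alternatives Aars2 ran from -1.32 to -0.11, Cars2 from -0.21 to 2.35, Ears2 from -0.36 to 1.34, Pars2 from -0.81 to 0.15, Rars2 from -0.92 to -0.09, Vars2 from -0.55 to 0.64 and Yars2 from -0.11 to 0.62, and only Aars2 and Rars2 of the 10 kept their direction. Several of these rested on few counts: Aars2 had 1 count in mito-supplemented sample 4, Cars2 had 1 count in control sample 4, and Pars2 had 0 counts in control sample 4, where the limit set by 3 counts was 0.592 CPM. Iars2, next to Lars2 in level per kilobase, was between 57.0 and 114 CPM, but 22.9% of its exon bases are shared with Rab3gap2 on the opposite strand.

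By structural family, 16 of the 17 class II synthetases had a log2 fold change below 0 (median -0.53), and 13 of them with library sizes alone (median -0.21). Of the 18 class I synthetases, 12 lay below 0 with a median of -0.19, which turned to 0.07 with library sizes alone. As each library was left out, class II members below 0 ran from 14 to 16 (medians -0.54 to -0.30) and class I members from 9 to 14 (medians -0.32 to -0.03). With only the 5 libraries low in red cell markers the medians were -0.42 and 0.05. Relative to all genes the medians were -0.43 and -0.10, and -0.38 and -0.10 with library sizes alone. Eprs, whose glutamate and proline domains belong to different classes, was counted in neither, and the difference between the classes was not tested.

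Cytosolic synthetases stood at higher levels per kilobase than mitochondrial ones in every library. The median level of the 18 cytosolic members was 8.11, 16.1, 12.1 and 9.67 CPM per kilobase in control samples 1 to 4 and 13.6, 6.35, 6.36 and 8.33 in mito-supplemented samples 1 to 4. For the 16 mitochondrial members it was 2.40, 2.15, 1.90 and 1.88 CPM per kilobase in the controls and 1.73, 2.09, 1.77 and 1.57 in the mito-supplemented samples. The cytosolic medians varied more between libraries than the mitochondrial medians, with the highest values in control samples 2 and 3 and mito-supplemented sample 1. The ratio of the medians was thus 3.38, 7.45, 6.40 and 5.13 in the controls and 7.82, 3.04, 3.602 and 5.32 in the mito-supplemented samples, with means of 5.59 ± 1.75 and 4.94 ± 2.15 (SD, n = 4 each). The group means differed by less than these SDs. Together the 36 members took 0.335, 0.354, 0.308 and 0.305% of counts outside rRNA genes, mitochondrial and nuclear, in the controls. In the mito-supplemented samples they took 0.278, 0.247, 0.268 and 0.308%, where sample 4 lay among the controls.

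**Figure D4:**
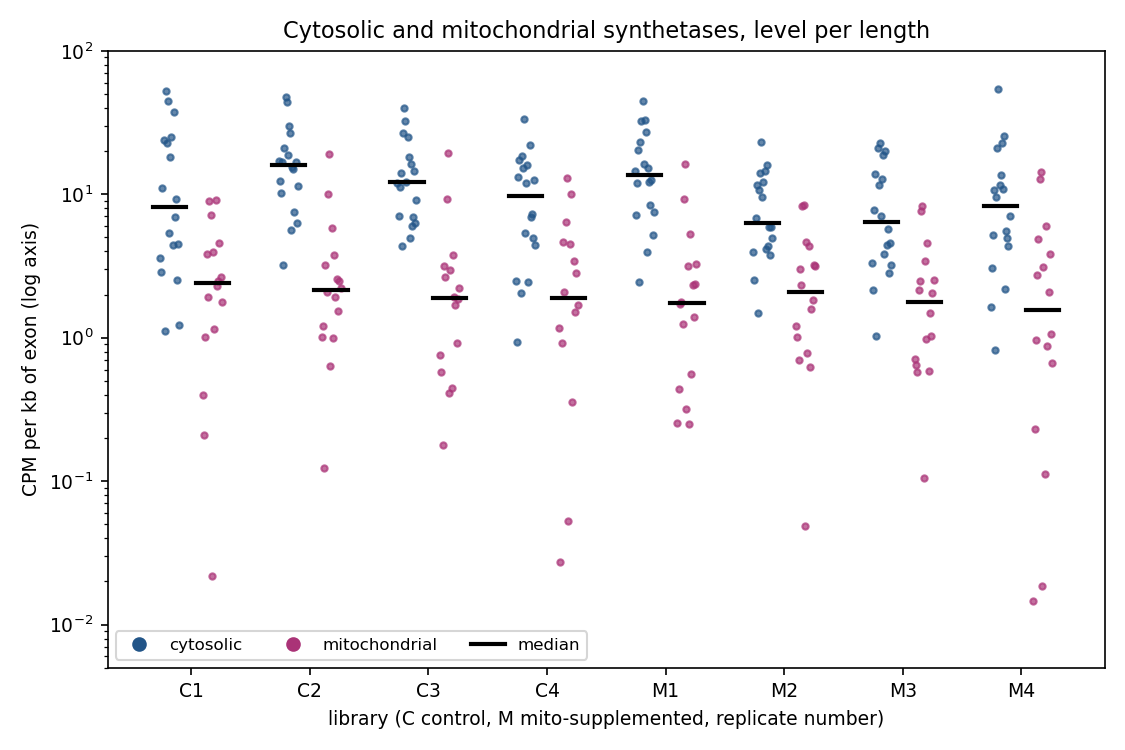
Level per kilobase of exon (CPM per kilobase, log axis) of each cytosolic and each mitochondrial synthetase in each of the 8 libraries, with the median in black and values of 0 not drawn. The cytosolic median lies above the mitochondrial one in all 8 libraries, by 3.04 to 7.82 times.

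Within the cytosolic set the mean level over all 8 libraries ran from 37.3 ± 11.2 CPM per kilobase for Iars to 2.07 ± 1.23 for Farsa (SD). After Iars came Hars at 25.6 ± 13.1, Farsb at 22.9 ± 13.4, Nars at 21.2 ± 4.95, Rars at 20.97 ± 7.53 and Mars at 19.5 ± 8.49, neighbours that did not differ beyond their spread. Eprs, at 16.1 ± 4.48 on the union of its exons, would rank highest on its longest transcript, with 51.6 ± 14.4 CPM per kilobase. On longest transcripts Iars came next at 44.5, followed by Nars at 33.6, Rars at 32.1, Hars at 31.5 and Farsb at 29.5, so the order depended on the length used. Mitochondrial members ran from Lars2 at 13.2 ± 4.85 and Iars2 at 9.10 ± 1.88 down to Cars2 at 0.543 ± 0.407 and Mars2 at 0.201 ± 0.228.

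When each mitochondrial enzyme was set against the cytosolic enzyme of the same amino acid, with Eprs as the partner of both Ears2 and Pars2, the cytosolic gene had the higher level per kilobase in all 8 libraries for 12 of 16 pairs, and for 13 with the longest transcript in place of the union of exons. The widest ratio of means was 97.3 for Mars over Mars2. For Vars and Yars the order was turned in 1 library, control sample 1, where the cytosolic to mitochondrial ratios were 0.553 and 0.685, and on longest transcripts only Vars was turned there. For phenylalanine Farsa exceeded Fars2 in 3 of 8 libraries, with a ratio of means of 0.675 (2 of 8 and 0.537 on longest transcripts), while the beta subunit Farsb, which the pair does not use, exceeded Fars2 in all 8 libraries by 3.52 to 13.8 times. For leucine Lars exceeded Lars2 in 1 of 8, with a ratio of 0.815, and in 0 of 8 on longest transcripts, with a ratio of 0.386.

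Lars2, the mitochondrial leucine enzyme (chr9:123366927-123462666, plus strand), was thus the mitochondrial member with the highest level. It was at 79.9, 210.2, 214 and 144 CPM in control samples 1 to 4 and at 181, 93.2, 91.6 and 159 CPM in mito-supplemented samples 1 to 4. Control sample 1 was lowest and control samples 2 and 3 highest, so the mito-supplemented values lay within the range of the controls. Mean Lars2 was 162 ± 63.5 CPM against 131 ± 45.8 CPM (SD, n = 4 each). The log2 fold change of -0.30 (SE 0.40, edgeR adjusted p = 0.834) ran from -0.51 without control sample 1 to -0.14 without control sample 3, and turned to 0.026 with library sizes alone and to 0.050 with only the 5 libraries low in red cell markers.

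Mouse Lars2 is known for a stretch resembling the large mitochondrial rRNA, so its counts were set against that rRNA, Rnr2. Rnr2 took 15.02, 30.9, 30.7 and 60.6% of all counts in control samples 1 to 4 and 12.4, 36.03, 27.7 and 32.6% in mito-supplemented samples 1 to 4. Control sample 4 thus had the highest share of Rnr2. It was also the shallowest library and had the fewest Lars2 counts, 728 against 1346 to 3743 in the other libraries. On the TMM scale its Lars2, at 144 CPM, lay within the range of the other libraries. Over the 8 libraries Pearson's r between the log2 CPM of Lars2 and Rnr2 was 0.27 (exact permutation p = 0.544, adjusted p = 0.953 over 13872 genes set against Rnr2). Spearman's rho was 0.381 (exact permutation p = 0.360, adjusted p = 1.00). Without control samples 1 and 4, the libraries farthest from the median of Rnr2, r was 0.04, without control sample 1 alone it was -0.016, and on shares of counts it was -0.51, so no relation was detected. On the transcripts of GENCODE M21 the longest run shared by Lars2 and the rRNA was 12 bases, inside the range of 10 to 14 bases for all members. This search found exact runs only, and the gene models used for the counts are not known. It therefore cannot decide whether reads of the rRNA were counted as Lars2.

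One pattern across libraries was noticed after the values had been seen and was given no test. For 11 of the 36 members the 3 highest libraries were control sample 2, control sample 3 and mito-supplemented sample 1, in any order, against 14.1% of all genes. These were Aars, Cars, Farsa, Hars, Lars, Mars, Vars and Yars of the cytosol, Gars of both compartments, and Lars2 and Mars2 of the mitochondrion. On library sizes alone the pattern held for 8 members, without Gars, Lars and Mars, against 10.8% of all genes. Yars, for example, was at 67.8, 53.8 and 44.3 CPM in those 3 libraries and between 7.26 and 41.7 CPM in the other 5. Cars was at 82.0, 46.7 and 46.9 CPM there and between 6.12 and 20.02 CPM elsewhere. The same 3 libraries held red cell markers at 3466 to 5463 CPM, while the others held 15.1 to 87.0 CPM, and immune markers at 119 to 744 CPM against 8.55 to 22.9 CPM, and the part of these cells in the pattern was not tested. They were 2 of the 4 controls and 1 of the 4 mito-supplemented samples.

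**Figure D5:**
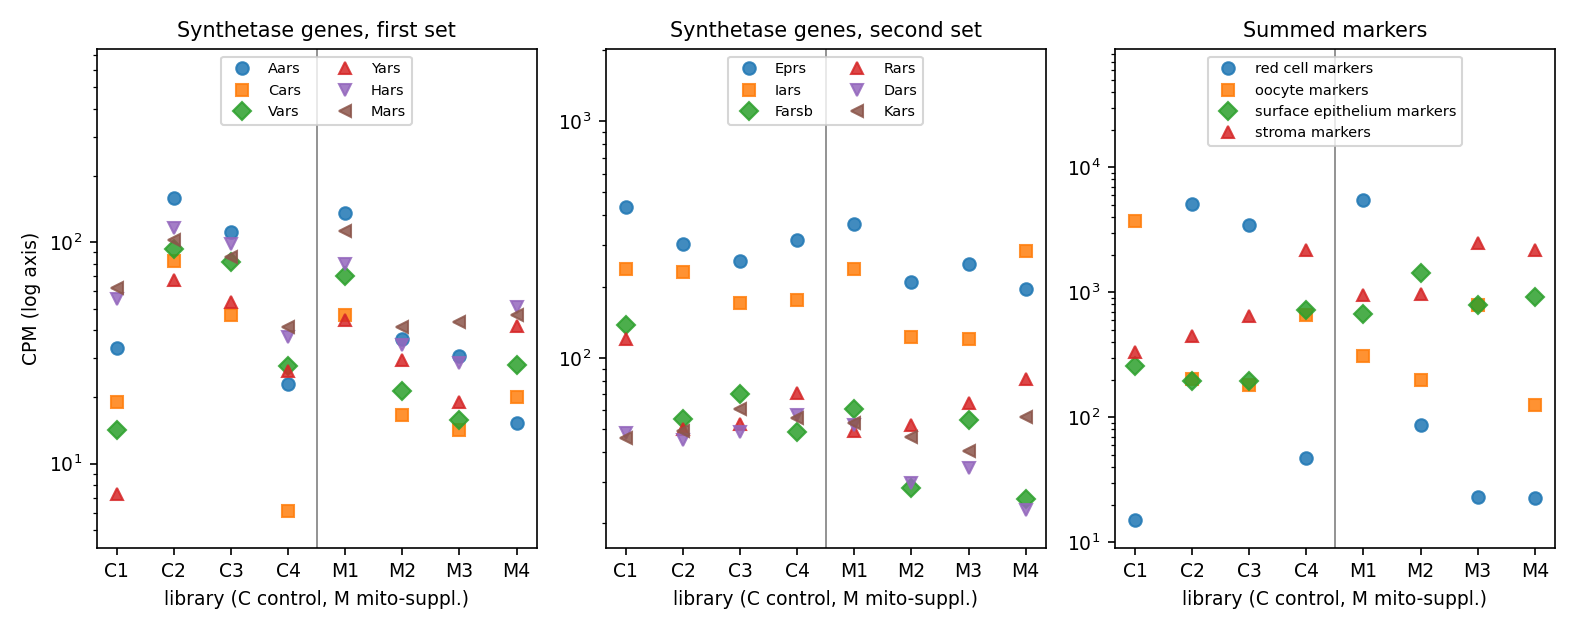
CPM (log axes) in each of the 8 libraries for 6 synthetases high in control samples 2 and 3 and mito-supplemented sample 1 (Aars, Cars, Vars, Yars, Hars, Mars), for 6 that are not (Eprs, Iars, Farsb, Rars, Dars, Kars), and for summed red cell, oocyte, surface epithelium and stroma markers. Red cell markers reach 3466 to 5463 CPM in those 3 libraries and stay under 100 CPM in the others.

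Other genes of the charging pathway were examined as whole lists, and 0 genes of these lists passed an unadjusted p of 0.05. Their directions are to be read beside all genes, of which 55.1% lay below 0, with a median of -0.10. With library sizes alone these were 41.5% and 0.17. All 3 scaffold proteins of the multisynthetase complex were tested, 2 were lower, and the median log2 fold change was -0.26 (-0.05 with library sizes alone and 0.16 without control sample 1). The scaffold protein with the smallest p was Eef1e1, at 15.2, 9.04, 5.95 and 4.14 CPM in the controls and 11.3, 8.86, 6.22 and 1.81 CPM in the mito-supplemented samples. The groups overlapped, with mito-supplemented sample 4 below all controls (log2 fold change -0.29, SE 0.67, edgeR adjusted p = 0.902), and the sign turned without control sample 1 (0.16) or mito-supplemented sample 4 (0.06) and was kept, at -0.76, with only the 5 libraries low in red cell markers.

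Elongation factors bring the charged tRNA to the ribosome and move the ribosome along. The 5 cytosolic factors were all below 0, from -0.39 for Eef2 to -0.03 for Eef1a1, with a median of -0.07. Relative to all genes this median was 0.03 (0.09 with library sizes alone), and 2 of the 5 lay below the median of all genes. With library sizes alone 2 were below 0 (median 0.26), and without mito-supplemented sample 2 the number was also 2 (median 0.03). Eef2, the translocation factor, was at 717, 1238, 1159 and 829 CPM in controls and at 1020.5, 597, 499.5 and 883 CPM in mito-supplemented samples (log2 fold change -0.39, SE 0.35, edgeR adjusted p = 0.766), and its log2 fold change was -0.12 with library sizes alone and -0.56 without mito-supplemented sample 1. Of the 4 mitochondrial factors all were below 0, with a median of -0.45, and 3 were below 0 with library sizes alone (median -0.34) and 2 without control sample 1 (median -0.16). Gfm2, which acts in recycling mitochondrial ribosomes, was at 18.2, 23.9, 23.2 and 17.0 CPM in controls and at 14.5, 11.7, 10.4 and 2.99 CPM in mito-supplemented samples. These groups did not overlap on the TMM scale, as for 2.03% of all genes, and overlapped on library sizes alone, where control sample 4 was at 8.30 CPM and mito-supplemented samples 1 to 4 were at 15.1, 12.7, 14.2 and 3.25 CPM. Its log2 fold change was -1.06 (SE 0.51, edgeR adjusted p = 0.660), and it ran from -1.42 to -0.73 over all alternatives.

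Among enzymes that modify charged mitochondrial tRNA, 3 of 4 were in the table, 2 of them lower, with a median of -0.14 (-0.07 with library sizes alone and 0.03 without mito-supplemented sample 1). Mtfmt, which formylates the initiator methionine, had a log2 fold change of -0.47 (SE 0.62, edgeR adjusted p = 0.832), which was -0.15 with library sizes alone and ran from -0.89 to -0.12 over all alternatives. For tRNA processing and export 10 of 11 genes were tested, 8 were lower, and the median was -0.15. With library sizes alone 3 were lower (median 0.02), and without control sample 1 the number was 5 (median -0.07). Without control sample 4 the median was -0.31. Elac2, which trims the 3′ end of tRNA precursors, was at 78.2, 13.7, 12.01 and 24.5 CPM in controls and at 15.5, 14.2, 18.7 and 4.66 CPM in mito-supplemented samples. Its log2 fold change of -1.28 (SE 0.68, edgeR adjusted p = 0.674) was -0.31 without control sample 1 and -2.01 with only the 5 libraries low in red cell markers. Of the proteins that edit or release charged tRNA, 4 of 6 were tested, 3 were lower, and the median was -0.22. With library sizes alone 1 was lower (median 0.10), and without control sample 2 the number was 2 (median -0.02). The median was -0.06 without mito-supplemented sample 1 and -0.43 without mito-supplemented sample 4. Ptrh2, a peptidyl-tRNA hydrolase, was at 16.6, 30.5, 23.4 and 48.4 CPM in controls and at 26.3, 17.7, 12.6 and 9.59 CPM in mito-supplemented samples (log2 fold change -0.84, SE 0.47, edgeR adjusted p = 0.681), with -0.38 on library sizes alone and -1.27 with only the 5 libraries low in red cell markers.

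The amino acid response, in which the kinase Eif2ak4 senses uncharged tRNA and the factor Atf4 raises synthetase and amino acid genes, was covered by 17 tested genes of 18. Of these 9 were lower and 8 higher, with a median of -0.20 that turned to 0.06 with library sizes alone and ran from -0.69 to 0.28 as each library was left out. With only the 5 libraries low in red cell markers, 6 of 16 tested were lower and the median was 0.40. Atf4 was at 8.98, 46.5, 32.2 and 32.6 CPM in controls and at 84.0, 20.4, 22.0 and 12.9 CPM in mito-supplemented samples. Its log2 fold change of 0.21 (SE 0.66, edgeR adjusted p = 0.928) became 0.60 with library sizes alone, -0.69 without mito-supplemented sample 1, -0.075 without control sample 1 and -0.15 with only the 5 libraries low in red cell markers. Asns, asparagine synthetase and a known Atf4 target, was at 2.17, 121, 73.5 and 2.57 CPM in controls and at 80.1, 11.2, 19.3 and 7.30 CPM in mito-supplemented samples. Asns was thus highest in the 3 libraries where 11 of the synthetases were, and its log2 fold change of -0.76 (SE 1.20, edgeR adjusted p = 0.858) was -0.50 with library sizes alone and turned to 0.17 without control sample 2 and to 2.44 with only the 5 libraries low in red cell markers. Eif2ak4 was between 20.8 and 39.3 CPM in controls and between 25.0 and 54.9 CPM in mito-supplemented samples (log2 fold change 0.20, edgeR adjusted p = 0.884), which was 0.54 with library sizes alone, 0.69 with only the 5 libraries low in red cell markers and -0.076 without mito-supplemented sample 2. Chac1, a glutathione-degrading enzyme and the gene of this list with the smallest p, was at 2.502, 13.0, 1.49 and 0 CPM in controls and at 2.09, 0, 0.181 and 0.139 CPM in mito-supplemented samples (log2 fold change -2.79, SE 1.64, edgeR adjusted p = 0.683). Its sign held without control sample 2, the library with the highest value, and over the libraries left out in turn it ran from -5.16 to -1.15.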

How the data were processed

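RNA-Seq counts from 8 samples were analysed. The authors prepared libraries with the Trio RNA-Seq kit, trimmed reads with Trim Galore 0.4.4, aligned them with STAR 2.5.3a to mm10 and counted them per gene with featureCounts, and the deposited values are these raw counts. Which annotation release and strand setting were used, and how multiply mapped reads were treated, is not given in the sources used here, and a further control library left out by the authors was not analysed here. Samples were grouped by their labels. Members, gene lists and marker lists were chosen with earlier results of these data known.

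The counts were tested here in R 4.3.3 by the quasi-likelihood test of edgeR 4.0.16, after TMM scaling and filterByExpr defaults, with Benjamini-Hochberg adjustment over 13873 genes (common biological coefficient of variation 0.771). Calls needed a log2 fold change of size 1 or more, in either direction, and an adjusted p under 0.05. Standard errors and 95% intervals came from the log2 fold change and its F statistic. Log2 CPM used a prior count of 2. DESeq2 1.42.0, the edgeR likelihood ratio test, other scalings and filters, a replicate block, counts summed by label code, removal of rRNA genes and each library left out in turn were alternatives. The quasi-likelihood, likelihood ratio and DESeq2 tests were first tested on simulated data. How many true changes they recover at the spread of these data is not given. Coordinates, exon lengths and overlaps came from GENCODE M21, and tables were made with Python 3.11.15, numpy 2.4.6 and pandas 2.3.3.

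Full values were given for the 4 cytosolic and 4 mitochondrial members with the smallest p, Gars, Kars, Lars2, Farsa, Farsb, the members with the highest and lowest level per kilobase, the gene with the smallest p of each other pathway list, and Atf4, Asns and Eif2ak4. Other genes named singly, such as Eprs, Aars, Vars, Cars, Yars, Rars, Qars and Wars, were chosen after their values had been seen. One promoter window is not reported here. Sample positions on library sizes alone, and the alternatives for whole lists and for all 36 members, were added after seeing the data.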

Additional observations from a re-analysis of the deposited data

Results flagged for a closer look

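In 6 of 78 groups of 4 samples, 1 sample lay far from the other 3, and chance alone gives about 1 in 20 groups, here 3.9. Mars was at a log2 CPM of 6.81 in mito-supplemented sample 1, against 5.38 to 5.55 in the other samples of its group, and Tars in the same library was at 5.65 against 5.03 to 5.12. Qars was at 6.17 in mito-supplemented sample 4, against 4.67 to 4.77, and Yars2 in that library was low, at 1.14 against 3.02 to 3.37. Sars was at 6.27 in control sample 2, against 4.96 to 5.17. Sars2 was at 0.39 in control sample 4, against 2.69 to 2.95.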

How the results depend on the processing

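Over 18 alternatives, 375 of 394 log2 fold changes of the 22 genes named by rule kept their direction and 19 turned; where a value turned or moved, the cause was not tested. Called genes numbered 0 in the main test, 58 by the likelihood ratio test and 141 by DESeq2, and 0 without any single library. Members past an unadjusted p of 0.05 numbered 0 to 1 without single libraries, where 3.95 to 14.1% of all genes passed, and 2 (Eprs and Farsb, 5.71%) with only the libraries low in red cell markers, which leave 5 samples, against 10.8% of all genes. With the replicate number as a replicate block 1 member (Farsb, 2.78% against 7.07% of all genes) passed and Atf4 was at -0.19; the numbers did not pair the samples (correlations of deviations -0.244, -0.191, -0.334 and 0.223), and the block changed no call. Leaving out single libraries, members below 0 ran from 24 to 31 (cytosolic 13 to 17, mitochondrial 10 to 12), the cytosolic median from -0.63 to -0.24, the mitochondrial median from -0.37 to -0.15, the log2 ratio of cytosolic to mitochondrial levels from 2.22 to 2.42 (2.32 with all) and the Lars2 and Rnr2 correlation from -0.016 to 0.46 (-0.51 on shares of counts). With library sizes alone the mitochondrial median was -0.014, Kars 0.20, Lars2 0.026 and Iars 0.12. With counts summed by label code Kars was 0.0081 and Iars 0.21. With the libraries low in red cell markers, an alternative added after seeing the data, Lars2 was 0.050, Atf4 -0.15 and Asns 2.44. Without single libraries Kars ran from -0.15 to 0.0053, Iars from -0.32 to 0.11, Eef1e1 from -0.58 to 0.16, Atf4 from -0.69 to 0.51, Asns from -1.97 to 0.17 and Eif2ak4 from -0.076 to 0.36. Depth limits Mars2, Pars2, Aars2, Cars2, Ears2 and Sars2, each with fewer than 10 counts in at least 1 library.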
